A study of Mus musculus with 2 samples.

Results

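The genes described here are the interferon-induced Ifit genes and the complement genes C2 and Cfb, in Wnt1-Cre lineage cells sorted from the newborn mouse cochlea. They are the rows of the deposited table whose symbol is Ifit followed by a digit, together with C2 and Cfb, and 5 of the 4197 listed genes met that rule: Ifit1 (ENSMUSG00000034459), Ifit2 (ENSMUSG00000045932), Ifit3 (ENSMUSG00000074896), C2 (ENSMUSG00000024371) and Cfb (ENSMUSG00000090231). The members were chosen by their values in the GFP positive and GFP negative columns, with earlier results of this contrast known, so those values are given as a description without a test.

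The GFP positive cells came from the cochlear lateral wall at postnatal day 0, from mice of genotype wnt1CRE::Ai3, and the GFP negative cells from the same tissue and age, with the genotype field reading wnt1CRE::Ai4. The protocol names EYFP as the reporter. In such mice Cre under the Wnt1 promoter marks descendants of the neural crest, which in the stria vascularis include the intermediate cells, the pigment cells needed for the endocochlear potential. The labels list 1 sample of each fraction, with 68K in the title of the positive and 180K in that of the negative, and do not state whether cells of several animals were pooled. The positive column is the authors' mean, whose steps are those of 2 libraries, called A and B here, and neither is tied to the listed sample.

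Listed genes held 17120511 reads in library A, 16584559 in library B and 12114107 in the GFP negative library. The table holds only genes that had passed a selection: in the authors' deposited table the largest adjusted p is 0.00986 and the smallest size of a log2 ratio is 1.001. A gene outside the table therefore has no value here. All 14 genes of a pigment cell marker list were listed and higher in GFP positive cells, with a summed level of 2734581 there and 6982 in GFP negative cells. Among all listed genes 43.6% were higher. The 7 listed genes of 11 Schwann cell markers were also higher, with sums of 94093 in GFP positive and 1493 in GFP negative cells. Which of these cells carried the transcripts described below was not tested. Values are normalised read counts. Folds carry exact 95% Clopper-Pearson intervals, which cover counting error only, and a positive log2 ratio, taken on log2(value + 1), means higher in GFP positive cells. With 1 GFP negative library no difference has a replicate check, and in bulk RNA fewer cells of a type and less RNA per cell cannot be told apart.

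Ifit proteins are cytoplasmic antiviral proteins built from tetratricopeptide repeats. Interferons induce them through transcription factors such as Irf9, which bind the interferon-stimulated response element, and several of them recognise viral RNA or restrain translation. C2 and complement factor B, the product of Cfb, are related serine proteases of complement, the protein cascade of blood and tissue that tags cells for removal. C2 joins with C4b to form the C3 convertase of the classical and lectin pathways, and factor B joins with C3b to form that of the alternative pathway. In the mouse C2 and Cfb lie side by side in the major histocompatibility complex, and both are also inducible by interferon.

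All 5 genes were higher in GFP positive cells, and each difference reached 4-fold, with a GFP positive value above 5. Of all listed genes 43.6% were listed as higher and 18.1%, or 761 genes, met the 4-fold rule in that direction, while 56.4% were listed as lower and 36.9%, or 1549 genes, met it in the other. With the log2 ratios centred on the median of genes with at least 5 in both fractions, these counts became 1831 higher and 466 lower. The 1831 are all the genes listed as higher. The selection on a log2 size of at least 1.001 fixed this, because taking away a median of -1.31 lifts each of them past 4-fold. Because the members were chosen on this contrast, nothing is read from the count of members. C2 stood apart within the set, with the largest fold and the highest level, and Ifit2 had the smallest fold.

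**Figure D1:**
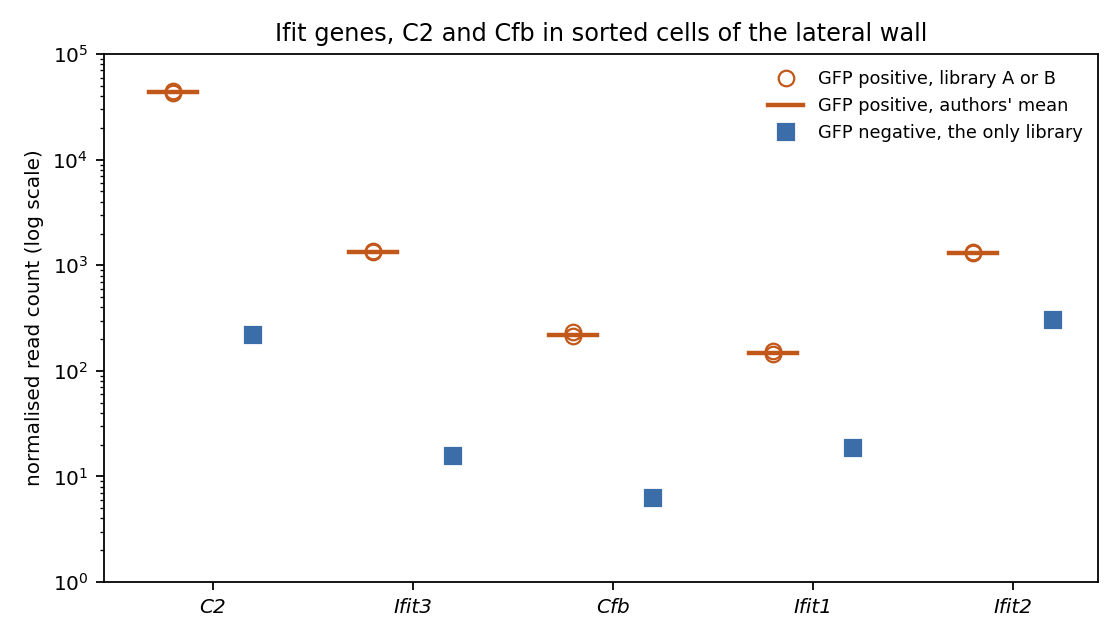
Normalised read count, on a log scale, of the 5 genes in GFP positive cells (open circles, libraries A and B; bar, the authors' mean) and in the GFP negative library (square). Libraries A and B lie close together for each gene and above the GFP negative value; C2 reached a mean of 43937 in GFP positive and 220.3 in GFP negative cells.

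Among the Ifit genes, Ifit3 had the largest difference. Ifit3, whose human counterpart joins other IFIT proteins in RNA-binding complexes, stood at 1361 in library A and 1338 in library B, against 15.7 in GFP negative cells. The ratio of the mean of 1349 to the GFP negative value was 86.2 (52.1 to 154), a log2 ratio of 6.34 that rests on 15 GFP negative reads.

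Ifit2 reached almost the same normalised count in GFP positive cells but was far from scarce in the others. Its values were 1326 in library A and 1306 in library B, against 306 in GFP negative cells, which is 4.30-fold higher in GFP positive cells (3.81 to 4.87). It was the most abundant of the Ifit members in GFP negative cells, with 293 reads. Per 100 reads of Ifit3 there were 97.5 of Ifit2 in the GFP positive libraries together and 1953 in the GFP negative library. When each column was divided by its total over the listed genes, a shift of -0.37 on the log2 scale, the log2 ratio of Ifit2 was 1.73, below the 4-fold limit of 2.

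Ifit1, which binds RNA that lacks the cap methylation of host messenger RNA, was the least abundant Ifit member in GFP positive cells. It stood at 155 in library A and 143 in library B, against 18.8 in GFP negative cells. The fold of 7.92 (4.93 to 13.5) lay between those of Ifit3 and Ifit2, and its interval overlapped neither. Ifit1 rests on 18 GFP negative reads.

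A near copy of Ifit3 was also listed. Ifit3b, which the table carries as I830012O16Rik and which the symbol rule therefore did not take, stood at a mean of 1037 in GFP positive and 16.7 in GFP negative cells, with a log2 ratio of 5.87. Of the 1696 different 50-base stretches in the annotated Ifit3 transcripts, 51.2% also occur in those of Ifit3b, so the split of reads between these genes is uncertain. Their sum was 2386 in GFP positive cells and 32.4 in GFP negative cells, a ratio of 73.7 (51.9 to 109). The sum does not depend on that split if each shared read was counted once. How shared reads were counted is not given, and the interval does not cover this. Ifit2 shared 0 such stretches with any other gene, and Ifit1 shared 7.13%, mainly with Ifit1bl2. The table does not list Ifit1bl1 and Ifit1bl2, the remaining names of the family. The 4 listed Ifit genes, Ifit3b included, had a median log2 ratio of 4.40.

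The Ifit genes lie in 1 cluster on chromosome 19, and the sequence before their starts is where interferon-activated factors are known to bind. RefSeq windows, from 250 bases before to 50 after an annotated start on build GRCm38.p6, were matched for 3 of the 5 members. They were searched on both strands for the core of the interferon-stimulated response element, written as GAAA, any 2 bases, then GAAA. The windows of Ifit1, Ifit3 and Ifit3b each hold 2 matches, all read on the strand opposite to the gene, and the matches do not overlap. The 250 bases before the start are shown 5′ to 3′ on the plus strand because these genes share both matches in the same order. The capitals mark the matches. Ifit1 is at chr19:34640639-34640888, Ifit3 at chr19:34583279-34583528 and Ifit3b at chr19:34607707-34607956.
Ifit1: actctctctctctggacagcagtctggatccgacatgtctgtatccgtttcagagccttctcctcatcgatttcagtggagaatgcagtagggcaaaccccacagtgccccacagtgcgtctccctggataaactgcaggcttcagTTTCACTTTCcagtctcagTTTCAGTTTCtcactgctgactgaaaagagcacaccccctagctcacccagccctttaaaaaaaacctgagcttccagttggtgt
Ifit3: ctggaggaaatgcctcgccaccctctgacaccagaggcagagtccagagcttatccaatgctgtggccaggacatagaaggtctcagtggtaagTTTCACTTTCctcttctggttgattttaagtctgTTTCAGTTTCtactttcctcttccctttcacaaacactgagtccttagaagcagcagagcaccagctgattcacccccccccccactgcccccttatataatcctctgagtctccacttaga
Ifit3b: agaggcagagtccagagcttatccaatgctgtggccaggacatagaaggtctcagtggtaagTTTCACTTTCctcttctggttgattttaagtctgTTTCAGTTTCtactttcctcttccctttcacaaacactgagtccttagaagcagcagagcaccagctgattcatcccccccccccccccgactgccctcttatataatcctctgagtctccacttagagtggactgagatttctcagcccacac

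In all 3 genes the first match reads TTTCACTTTC and the second TTTCAGTTTC along the plus strand. In Ifit1 they lie 104 to 95 and 85 to 76 bases before the annotated start, and in Ifit3 156 to 147 and 122 to 113 bases before it. The windows of Ifit3 and Ifit3b are identical at 259 of 260 aligned bases, a count that leaves out gaps and the unaligned ends of the windows. The 2 windows annotated for Ifit2 hold 0 matches, which says only that these letters are not in those windows. The same windows were searched on both strands for the interferon-gamma activated sequence, written as TTC, any 3 bases, then GAA. It matched 1 time, in a window of Ifit2, as TTCCTGGAA from 241 to 233 bases before the start, and not in those of Ifit1, Ifit3 and Ifit3b. Of 27025 genes with a window, 3.99% hold at least 1 match to the first motif and 9.55% to the second. A match is a description of the letters and not of binding.

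C2 was the most abundant of the 5 genes in GFP positive cells and had the largest fold. It stood at 43247 in library A and 44626 in library B, against 220.3 in GFP negative cells. The ratio was 199 (174 to 229), and the log2 ratio of 7.63 ranked 33 among all listed genes. Its GFP positive mean ranked 45 among the 4197 listed genes, whereas its GFP negative value ranked 3090.

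Cfb, also higher in GFP positive cells, was far less abundant. It stood at 231 in library A and 212 in library B, against 6.26 in GFP negative cells, which is 6 reads. The fold of 35.3 (16.1 to 96.8) therefore has the widest relative interval of the 5, and it overlaps that of Ifit3 but not that of C2 or Ifit1. Per 100 reads of C2 there were 0.505 of Cfb over both GFP positive libraries, with 0.534 in A and 0.475 in B, and 2.84 in the GFP negative library.

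C2 and Cfb follow each other on the same strand of chromosome 17, and the GENCODE annotation holds a further gene, Gm20547, that overlaps both. Of the different 50-base stretches in annotated C2 transcripts 38.7% also occur in those of Gm20547, and of those in Cfb transcripts 73.0%. Gm20547 was not listed. How the authors' counting treated reads in such stretches is not given in the sources used here, and reads of a transcript running from C2 into Cfb cannot be told apart from those of Cfb there. Zbtb12, on the opposite strand beside C2, holds 2.87% of C2's stretches and was not listed either.

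Across the members the order of levels differed between the fractions. Per kilobase of annotated exon, C2 stood at 11347 in GFP positive cells, followed by Ifit3 at 773, Ifit2 at 335, Cfb at 78.4 and Ifit1 at 56.1 normalised reads. No neighbours in that order overlapped in their exact 95% Poisson intervals, and the order was the same in library A and in library B. These intervals do not cover reads from 50-base stretches shared with other genes. Such stretches make up 73.0% of those of Cfb, 51.2% of Ifit3, 41.5% of C2, 7.13% of Ifit1 and 0% of Ifit2. How these reads were counted is not given, so the intervals alone do not settle the order between genes. In GFP negative cells Ifit2 led with 77.9 per kilobase, followed by C2 at 56.9, Ifit3 at 8.98, Ifit1 at 7.08 and Cfb at 2.22. There the intervals of Ifit3 and Ifit1 overlapped, and so did those of Ifit1 and Cfb, so their order was not resolved at this depth.

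**Figure D2:**
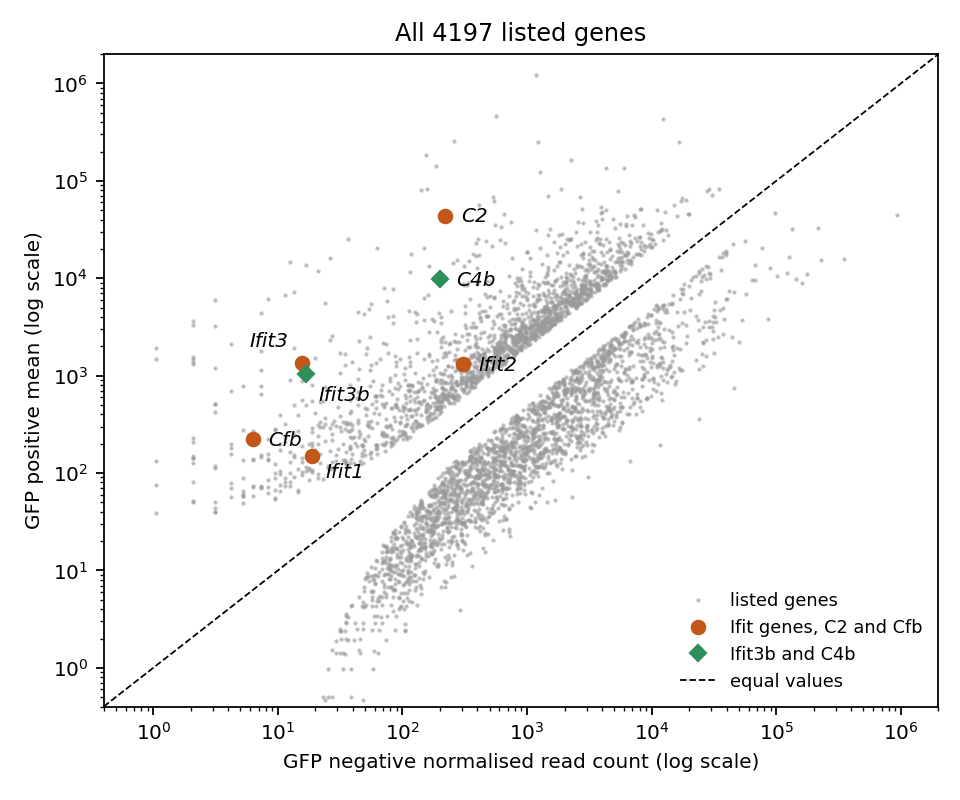
GFP positive mean against GFP negative value of the 4197 listed genes, both as normalised read counts on log scales. The 5 members (circles) and the genes Ifit3b and C4b (diamonds) lie above the line of equal values; Ifit3 at 1349 in GFP positive and 15.7 in GFP negative cells and C2 at 43937 in GFP positive and 220.3 in GFP negative cells are far above it, and Ifit2 at 1316 in GFP positive and 306 in GFP negative cells lies nearer to it.

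Neighbouring genes on the chromosomes were mostly not in the table. Of the 8 protein-coding genes from Lipa to Slc16a12, which span the Ifit cluster, 5 were listed. These were Ifit1, Ifit2, Ifit3, Ifit3b and Lipa, the lysosomal acid lipase, which stood at 5973 in GFP positive and 2349 in GFP negative cells with a log2 ratio of 1.35. Of the 13 protein-coding genes from C4b to Neu1 around C2 and Cfb, 4 were listed. They were C2, Cfb, C4b with a log2 ratio of 5.61 and the lysosomal sialidase Neu1 with 1.38. All 4 were higher in GFP positive cells, but C2 and Cfb are members and the span was drawn to end at C4b and Neu1. Nothing is therefore read from their shared direction.

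**Figure D3:**
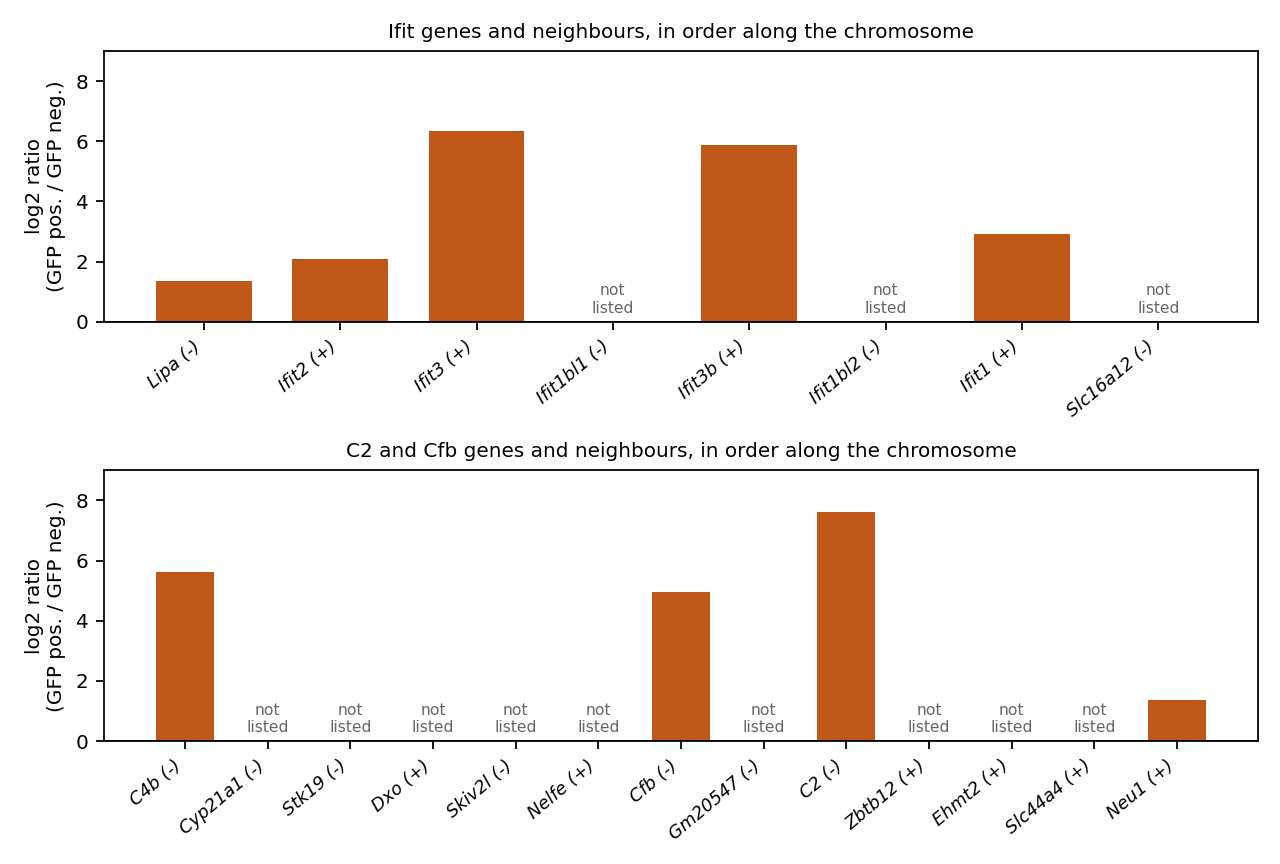
Log2 ratio of GFP positive mean over GFP negative value (vertical axis, on log2(value + 1)) for the protein-coding genes around the Ifit cluster (top) and around C2 and Cfb (bottom), in order along the chromosome with the strand in brackets. Ifit3 at 6.34 and Ifit3b at 5.87 stand above Ifit1 at 2.92 and Ifit2 at 2.10; C2, Cfb and C4b stand above Neu1 at 1.38, and most of the genes between them were not listed.

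Those other interferon-induced genes that were listed were mostly higher in GFP positive cells too. Of a list of 49 such genes that leaves out the Ifit family, 18 were listed, 16 higher and 2 lower. The remaining 31 names have no value here. By 4-fold or more, 8 were higher and 2 lower. Over all listed genes 43.6% were higher, and by 4-fold or more 18.1% were higher and 36.9% lower. The 18 genes had a median log2 ratio of 1.94, beside -1.34 over all listed genes. Irf9, a transcription factor of type I interferon signalling, stood at 3131 in GFP positive and 1270 in GFP negative cells, a log2 ratio of 1.30.

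The largest differences of that list were smaller than those of Ifit3. Xaf1, an antagonist of an apoptosis inhibitor, stood at 1542 in GFP positive and 113 in GFP negative cells, which is 13.7-fold higher in GFP positive cells (11.3 to 16.7). Lgals3bp, a secreted glycoprotein that binds galectins, had the highest GFP positive value, at 10116 in GFP positive and 879 in GFP negative cells, and the ubiquitin ligase Trim25 stood at 2796 in GFP positive and 452 in GFP negative cells. Rsad2, the antiviral enzyme viperin, was 11.8-fold higher (9.38 to 15.0), and Usp18, which removes Isg15 from proteins and dampens the interferon receptor, was 7.63-fold higher (5.87 to 10.1). The genes in the other direction were Ifitm1, a membrane protein that blocks viral entry, at 66.3 in GFP positive and 549 in GFP negative cells, and the exonuclease Isg20 at 9.04 in GFP positive and 123 in GFP negative cells. Isg20 rests on few GFP positive reads, 14 in library A (13.0 normalised) and 5 in library B (5.04 normalised). Isg15, Mx1, Oas2, Oas3 and Irf7, often used as marks of an interferon response, were not listed and have no value here.

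Interferon-gamma GTPases, some of which attack the vacuoles of intracellular pathogens, went both ways. Of 16 genes 9 were listed, 5 higher and 4 lower, with a median log2 ratio of 1.02. Among all listed genes 43.6% were higher and 56.4% lower, and the median was -1.34. Irgm2 was the highest with a log2 ratio of 2.28, and Irgm1 stood at 1682 in GFP positive and 441 in GFP negative cells. Gbp8 was the lowest with -3.30, Gbp9 stood at 427 in GFP positive and 2245 in GFP negative cells, and Gbp4 at 259.7 in GFP positive and 881 in GFP negative cells. The difference in direction between these genes and the Ifit genes was not tested.

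**Figure D4:**
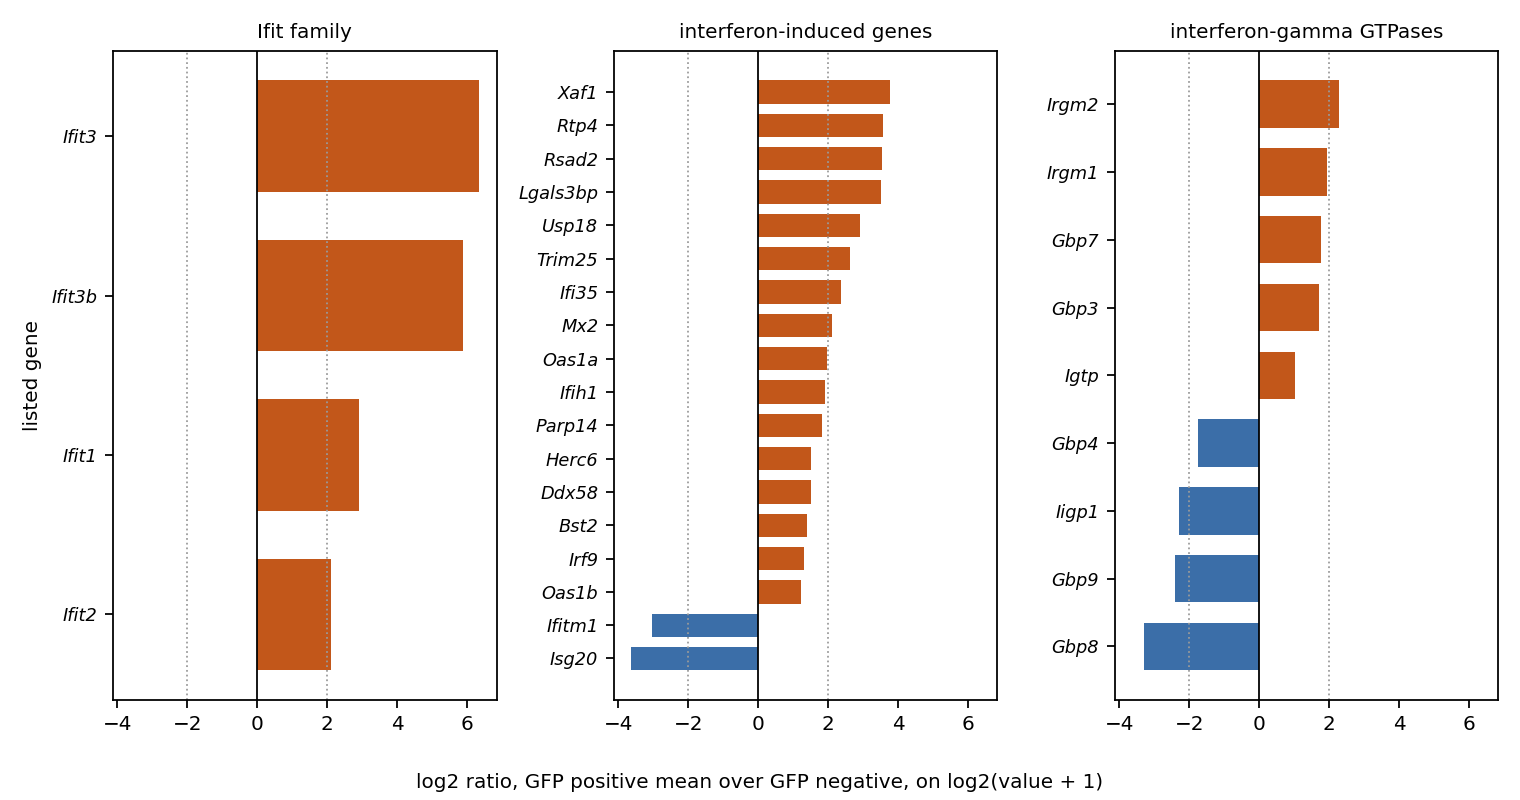
Log2 ratios of GFP positive mean over GFP negative value, on log2(value + 1), for the listed Ifit family (left), interferon-induced genes (middle) and interferon-gamma GTPases (right); dotted lines mark 4-fold. The 4 Ifit bars all point to GFP positive cells, as do 16 of 18 in the middle, while 4 of 9 GTPases point the other way.

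The machinery that senses nucleic acid and passes on interferon signals was listed only in part. None of 10 interferon ligand genes was listed. Of 17 receptor and signalling genes 7 were, 5 higher and 2 lower, with a median log2 ratio of 1.30. Beside these and the sensing genes below, 43.6% of all listed genes were higher. Ifnar2, a chain of the type I interferon receptor, stood at 4703 in GFP positive and 1609 in GFP negative cells, and Ifnlr1, a chain of the interferon-lambda receptor, was 5.39-fold higher (4.84 to 6.01). Genes that restrain the signal went both ways, since Usp18 and the phosphatase gene Ptpn6 were higher and the cytokine signalling inhibitors Socs1 and Socs3 lower. Ptpn6 stood at 1458 in GFP positive and 671 in GFP negative cells. Socs1 stood at 61.7 in GFP positive and 322 in GFP negative cells, and Socs3 at 1755 in GFP positive and 6598 in GFP negative cells. All 5 listed genes of 23 for nucleic acid sensing and interferon regulatory factors were higher, and Tlr3, a receptor for double-stranded RNA, had the highest log2 ratio of them, 2.82, with 2345 in GFP positive and 332 in GFP negative cells. The cytoplasmic RNA sensors Ddx58 and Ifih1 had log2 ratios of 1.50 and 1.91, the adaptor Tmem173 of DNA sensing had 1.40 and the kinase Ikbke 1.15.

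Antigen presentation by class I molecules, which interferons also raise, had 4 listed genes of 22, of which 3 were higher and none by 4-fold. Among all listed genes 43.6% were higher, and 18.1% by 4-fold or more. B2m, the light chain of class I molecules, stood at 26771 in GFP positive and 7960 in GFP negative cells, H2-D1 at 8462 in GFP positive and 2272 in GFP negative cells and the trimming peptidase Erap1 at 2967 in GFP positive and 1147 in GFP negative cells. The immunoproteasome subunit Psmb8 was lower, at 34.0 in GFP positive and 132 in GFP negative cells. Genes of the NF-kB and acute phase response had 3 listed of 26, all lower, beside 56.4% lower among all listed genes. They were Vcam1 at 584 in GFP positive and 9209 in GFP negative cells, Icam1 at 168 in GFP positive and 1498 in GFP negative cells and Tnfaip3 at 402 in GFP positive and 1026 in GFP negative cells.

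Most other listed complement genes were lower in GFP positive cells. Of 53 names in the 4 complement lists 20 were listed, 5 higher and 15 lower, with a median log2 ratio of -2.25 beside -1.34 over all listed genes. By 4-fold or more, 5 were higher and 12 lower, beside 18.1% higher and 36.9% lower over all listed genes. Besides C2 and Cfb the higher genes were C4b, Cd55 and Cd59a. The lists, like the members, were chosen with earlier results of these data known, so these genes are no independent check.

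Within the activation steps, the 3 higher genes were those of convertase components. As 2 of them, C2 and Cfb, are members chosen on this contrast, nothing is read from that shared role. C4b, the gene of the component whose fragment pairs with C2, stood at 9953 in library A and 9725 in library B, against 200.5 in GFP negative cells, which is 49.1-fold higher in GFP positive cells (42.6 to 56.9). Of its 50-base stretches 34.6% also occur in C4a, so the split of reads between these copies is uncertain, and C4a was not listed. Those genes of proteins that start the cascade that were listed were lower. The C1q chains C1qa, C1qb and C1qc had log2 ratios of -2.43, -2.49 and -2.23. The proteases C1s1 and C1ra had -2.66 and -1.80, and Masp2, a protease of the lectin pathway, had -1.87. Masp1, Mbl1, Mbl2, Fcna, Fcnb, Colec10 and Colec11, which are also on this list of names, were not listed and have no value here. Libraries A and B differed for both C1 proteases: C1s1 stood at 37.2 in A and 95.8 in B, against 427 in GFP negative cells, and C1ra at 39.1 in A and 83.7 in B, against 216 in GFP negative cells. In library A alone C1ra was therefore lower by more than 4-fold. The scavenger collectin Colec12 was lower at 1202 in GFP positive and 12300 in GFP negative cells, and properdin, the product of Cfp that stabilises the alternative convertase, stood at 369 in GFP positive and 936 in GFP negative cells. C3 and Cfd, the partner and the activating protease of factor B, were not listed.

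Of 14 names of complement regulators 5 were listed. Among these 5, both that sit on the cell surface were higher and the 3 secreted ones lower. The remaining names, such as Cd46, Daf2, Cd59b, Cr1l and Cfi, have no value here, so this split holds for the listed genes only. Cd55, which speeds the decay of convertases on the cell's own surface, stood at 3637 in GFP positive and 179.6 in GFP negative cells, which is 20.2-fold higher in GFP positive cells (17.4 to 23.7). Cd59a, which blocks the membrane attack complex on the cell surface, stood at 4060 in GFP positive and 482 in GFP negative cells, which is 8.42-fold higher in GFP positive cells (7.66 to 9.26). Of the secreted regulators Serping1, Clu and Vtn, Clu had the highest value, at 2346 in GFP positive and 10613 in GFP negative cells. Libraries A and B differed for Serping1, with 234 in A and 427 in B, against 1591 in GFP negative cells. The terminal components were lower from few reads, C7 at 1.40 in GFP positive and 34.5 in GFP negative cells and C9 at 4.97 in GFP positive and 57.4 in GFP negative cells. C7 had 3 reads in library A and 0 in B, and C9 had 2 in A and 8 in B. Receptor chains that also mark leukocytes were lower, Itgam at 42.6 in GFP positive and 274 in GFP negative cells and Itgb2 at 15.0 in GFP positive and 156 in GFP negative cells.

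**Figure D5:**
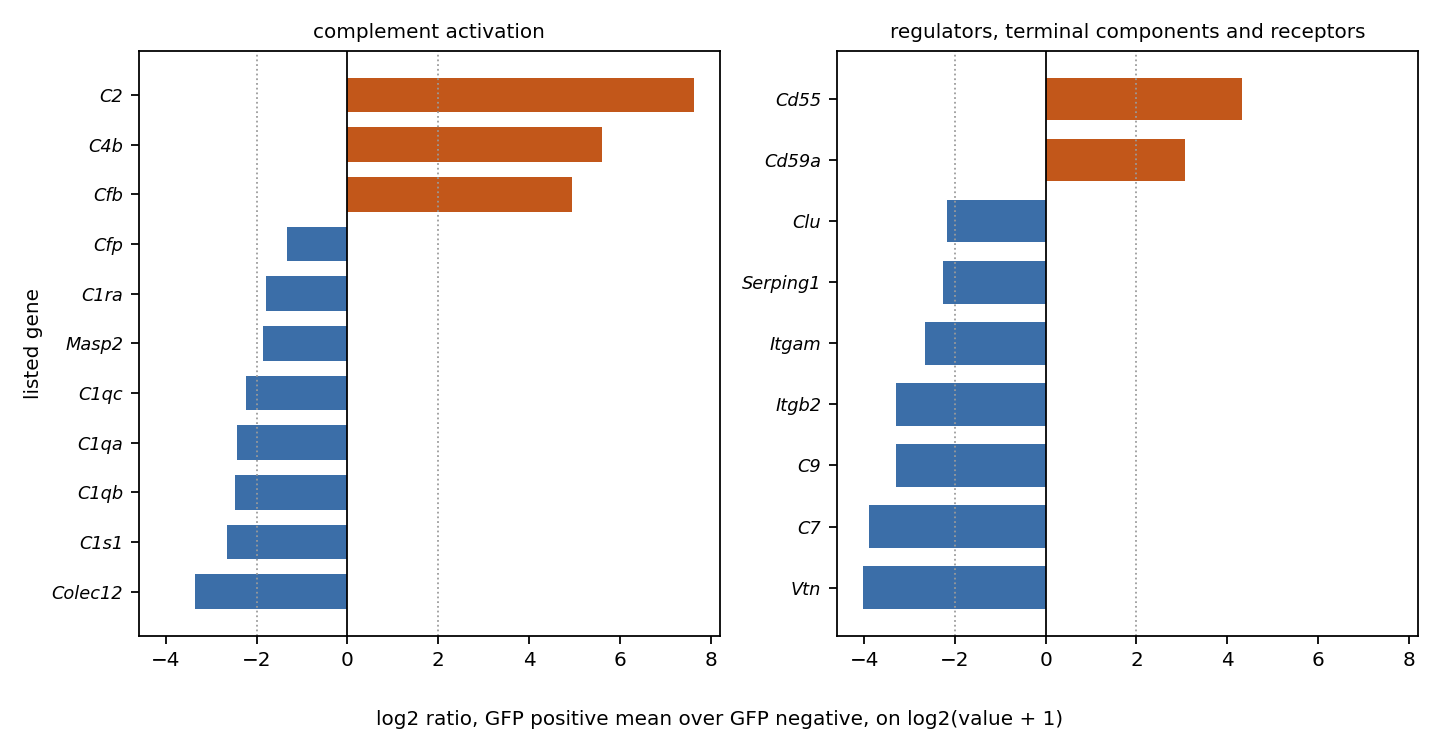
Log2 ratios of GFP positive mean over GFP negative value, on log2(value + 1), for listed complement activation genes (left) and for regulators, terminal components and receptors (right); dotted lines mark 4-fold. C2, C4b and Cfb on the left and Cd55 and Cd59a on the right point to GFP positive cells, and the remaining 15 genes point the other way.

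Macrophages and other leukocytes can themselves make complement and interferon-induced transcripts, and their markers were lower in the fraction where the 5 genes were higher. Of 20 macrophage and leukocyte markers 17 were listed, all lower, with a summed level of 2454 in GFP positive cells and 13211 in GFP negative cells. Beside this and the marker counts below, 56.4% of all listed genes were lower. No listed marker was at 0, and the leukocyte antigen Ptprc had the lowest GFP positive value of those listed, at 17.0 in GFP positive and 281 in GFP negative cells. The C1q chains stand on this list as well as among the complement genes. Neutrophil markers were lower for 6 of 6 listed of 10, at sums of 24.9 in GFP positive and 692 in GFP negative cells, and endothelial markers for 5 of 5 listed of 13, at sums of 1310 in GFP positive and 11406 in GFP negative cells. Fibrocyte markers were lower for 11 of 11 listed of 12, at sums of 83536 in GFP positive and 1046887 in GFP negative cells. How much RNA of these cells contributed to the values of the members was not tested.

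The genes nearest to each member over log2(value + 1) of both columns were searched for with predicted genes left out. They came mostly from unlike families, and the likeness is over 2 points only. For C2 they were Syt4, Hpse and Slc45a2, the last a transporter of pigment cells, at distances of 0.973 to 1.085. Among the genes searched, none was closer to C2. For Ifit3 the nearest was Ifit3b at 0.390, followed by Omg and Fxyd3. For Cfb they were Pgr, Ddo and Aspa, for Ifit1 Ribc2, Arhgap20os and Mettl24, and for Ifit2 Garem1, F3 and Fancd2, with the last group all within 0.058. Ifit2 thus lies close to genes of like values, and C2 where the genes searched are sparse.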

How the data were processed

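Per the labels' protocols, cells were dissociated with trypsin, sorted by GFP, and made into libraries with an Illumina TruSeq kit. Per the submitters' processing notes, the tools include STAR and the genome build is mm9; for the counter, its use of strand, the annotation, the scaling and the test, the sources used here give nothing. Per the file headers, the authors deposited a GFP negative value and a GFP positive mean as normalised signal, their ratio and its log2, and p-values before and after adjustment.

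The steps of the values show read counts divided by size factors. Of GFP negative values 100.0% were whole reads within 1e-06, with a size factor of 0.958. Of GFP positive means 100.0% had exactly 1 pair of whole numbers within a relative 1e-13, with size factors of 1.07 and 0.991. The mean is given without an SD. Interval bounds are exact, at 95%, from these reads. A 4-fold call used log2(value + 1) and required 5 or more in the higher fraction. Names came from GENCODE M21 by gene ID (4064 matched, 133 kept the table's symbol), on build GRCm38, which also gave exon lengths, gene order and 50-base stretches.

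Members and lists were chosen with earlier results of these data known, and some genes are not reported here. Named genes are the members, the listed Ifit and complement activation genes, the most abundant and extreme genes of each other list, listed neighbours and the 3 nearest genes by pattern; other named genes were picked after their values were seen. edgeR 4.0.16 was run on the recovered reads of all listed genes (TMM scaling), and only its log2 ratios are used here. All these genes were in the table through the authors' own selection as changed. A trial on simulated data changed 200 genes and left the rest unchanged. That setting differs from this table, so the trial does not speak for the accuracy of the scaling here. The other settings were pseudocounts of 0.5 and 5, scaling to the listed total, centring, library A or B alone, an 8-fold limit and a minimum of 5 in both fractions.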

Additional observations from a re-analysis of the deposited data

How the results depend on the processing

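All 35 recomputed log2 ratios of the 5 members kept their sign, and 29 stayed within the counting interval. The smallest main ratio was 2.10, scaling shifts it by -0.37, and centring raises every ratio. The sign could therefore not change under these settings or another pseudocount, and its keeping there is no check. Scaling to the listed total gave 7.26 for C2 and 1.73 for Ifit2. Centring on the median of listed genes with at least 5 in both fractions, a log2 ratio of -1.31, gave 8.95 for C2, 7.65 for Ifit3, 4.23 for Ifit1 and 3.41 for Ifit2. All 161 recomputed list medians kept their sign and 116 stayed within the counting interval of their middle genes, though the 8-fold limit cannot move a median. For the interferon-induced list, scaling gave a median of 1.57, centring gave 3.25 with 16 higher and 1 lower by 4-fold, and the 8-fold limit left 4 higher. Centring lifts every gene listed as higher past 4-fold, so the count of 16 was fixed by the authors' selection. For the complement lists the median was -2.62 with scaling, -0.94 with centring, -2.42 with library A alone and -2.08 with edgeR, and the number lower was 3 with centring and 5 at 8-fold. No paired analysis was possible because each fraction has 1 labelled sample. Depth limits Cfb, Ifit3 and Ifit1, which rest on 6, 15 and 18 GFP negative reads.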

Other observations

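The letters of the interferon-stimulated response element core were looked for in the windows of the whole interferon-induced list. Of the 16 listed genes that were higher in GFP positive cells 11 had a window, and 5 of these held a match, namely Bst2, Ddx58, Ifih1, Oas1a and Rsad2. Among the 31 names of the list without a listed row, 23 had a window, and 10 held a match, which is 43.5% beside 45.5% for the higher genes. Both listed genes of the list that were lower, Ifitm1 and Isg20, had a window, and 0 of these 2 held a match. Over all listed genes with a window the share was 4.62% among those higher in GFP positive cells and 3.08% among those lower.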
